A study of Mus musculus with 24 samples.

Results

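The regions described here carried H3K27ac in both forelimb and hindlimb buds of C57BL/6J mice at embryonic day 10.5 (E10.5). They touched no H3K27ac peak of either limb at E11.5. They were found by merging the 4 deposited E10.5 H3K27ac peak lists (2 forelimb and 2 hindlimb libraries) wherever peaks overlapped or abutted. Members are the regions with 1 bp or more of coverage in 3 or 4 of these lists that touched no peak of the E11.5 forelimb or the E11.5 hindlimb list (1 library each). Each member was thus in at least 1 forelimb and 1 hindlimb list, and regions listed in only 1 limb are left out by the rule. Of 29871 merged regions, 9472 were in 3 or more lists, and 554 of these were members. The other 8918 touched an E11.5 peak and are called kept regions. The members were chosen by these measured H3K27ac values, so their widths, scores and distances to E11.5 peaks are given as a description, without a test. The marks of H3K27me3, in 2 forelimb and 2 hindlimb libraries at E10.5, took no part in the choice.

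Acetylation of histone H3 at lysine 27 (H3K27ac) marks active promoters and enhancers, and the set of marked enhancers in a tissue turns over as the embryo develops. Trimethylation of the same lysine (H3K27me3) is the mark of Polycomb repressive complexes, often set over genes for developmental regulators, and 1 lysine cannot carry both marks. Where both marks are found at 1 place in whole tissue, they can lie on different histones, alleles or cells. In the limb bud, the Hox clusters are the textbook example of loci where stretches of H3K27ac and H3K27me3 border each other and shift with time and position.

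The labels name no mutation, transgene or treatment. Per the labels, the H3K27ac antibody lot differed between the stages, and lot and stage cannot be told apart. Titles and stage labels were followed where the growth protocol of the E11.5 samples gives the earlier day. In the E11.5 lists no gap between peaks was under 1001 bp, whereas E10.5 peaks could be 1 bp apart. The E11.5 lists covered 31.3 Mb (forelimb) and 47.2 Mb (hindlimb) against 7.63 to 14.7 Mb per E10.5 list. Absence at E11.5 was therefore counted against wider lists than those of E10.5. It says that the authors' caller listed nothing there, not that the mark was gone. The tissue was whole limb bud, so a mark held by fewer cells and a weaker mark per cell cannot be told apart. Among loci placed on the mouse build mm9, 15 of 16 mesenchyme and cartilage loci had an E10.5 H3K27ac region of 3 or more lists within 100 kb, and Sox9 had none.

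No mm9 genome was used here, so the regions themselves are given by position only. RefSeq promoter sequences of the later build GRCm38.p6 (250 bases before the start of the gene and 50 after it) are shown for 4 genes at whose loci members with named values lie. They are Pkdcc (chr17:83215033-83215332, plus strand), Bmper (chr9:23222826-23223125, plus strand), Cyp1b1 (chr17:79715012-79715311, minus strand) and Irx3 (chr8:91801605-91801904, minus strand). Each is written 5′ to 3′, and capitals mark CG, the dinucleotide that is dense in CpG island promoters, a class that Polycomb complexes are known to bind. They were matched to the genes by symbol, not to the regions by position, and the 4 were chosen after the positions of the members had been seen.
Pkdcc: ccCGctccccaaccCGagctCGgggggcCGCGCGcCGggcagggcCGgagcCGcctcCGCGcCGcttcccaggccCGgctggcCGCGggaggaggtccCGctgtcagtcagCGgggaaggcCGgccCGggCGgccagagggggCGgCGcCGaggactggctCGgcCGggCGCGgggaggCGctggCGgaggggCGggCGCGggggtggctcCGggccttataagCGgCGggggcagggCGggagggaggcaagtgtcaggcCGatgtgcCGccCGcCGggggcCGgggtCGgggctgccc
Bmper: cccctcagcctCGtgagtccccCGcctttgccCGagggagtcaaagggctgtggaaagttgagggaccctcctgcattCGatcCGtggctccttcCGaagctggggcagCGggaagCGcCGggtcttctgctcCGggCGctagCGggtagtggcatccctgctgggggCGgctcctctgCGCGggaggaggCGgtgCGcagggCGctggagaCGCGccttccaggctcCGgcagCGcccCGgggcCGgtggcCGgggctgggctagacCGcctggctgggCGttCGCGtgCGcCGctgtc
Cyp1b1: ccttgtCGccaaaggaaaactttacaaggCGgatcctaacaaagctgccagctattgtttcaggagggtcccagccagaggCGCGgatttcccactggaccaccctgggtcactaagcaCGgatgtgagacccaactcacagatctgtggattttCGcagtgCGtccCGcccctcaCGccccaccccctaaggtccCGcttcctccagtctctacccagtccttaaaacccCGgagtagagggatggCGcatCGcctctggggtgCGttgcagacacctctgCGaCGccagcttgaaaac
Irx3: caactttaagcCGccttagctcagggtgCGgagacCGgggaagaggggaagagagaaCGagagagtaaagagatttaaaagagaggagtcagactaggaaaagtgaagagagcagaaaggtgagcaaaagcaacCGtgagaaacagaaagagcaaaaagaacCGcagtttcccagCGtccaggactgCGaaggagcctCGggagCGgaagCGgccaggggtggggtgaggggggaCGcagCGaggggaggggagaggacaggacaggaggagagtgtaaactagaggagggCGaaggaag

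Counted on the letters above, where CG reads the same on both strands, the Pkdcc window held 42 CG, Bmper 31, Cyp1b1 16 and Irx3 14. The median over 27025 genes was 7. As many CG as in Pkdcc were found in 2.93% of all promoters, as many as in Bmper in 10.3%, as in Cyp1b1 in 33.5% and as in Irx3 in 36.9%. All 4 lay above the median gene. The count describes these windows and does not show that a member covers them.

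Absence at E11.5 was most frequent among regions found in few E10.5 lists. Of all merged regions, 8548 of 29871 were absent at E11.5, a background of 28.6%. Absent were 44.8% of the 15962 regions in 1 list, 19.04% of the 4437 in 2 lists, 11.3% of the 3591 in 3 lists and 2.50% of the 5881 in all 4. For regions in 3 or more lists the share was 5.85%. Members were thus drawn from the least often absent part of the lists. By library, 518 of the 554 members were in forelimb 1, 334 in forelimb 2, 470 in hindlimb 1 and 487 in hindlimb 2. These were 93.5%, 60.3%, 84.8% and 87.9% of members, against 97.7%, 82.2%, 89.3% and 95.1% of kept regions. All 4 lists held 147 members. Another 220 lacked only forelimb 2, the shortest list with 13589 peaks, while 84 lacked only hindlimb 1, 67 only hindlimb 2 and 36 only forelimb 1. In that order, these were 54.1%, 20.6%, 16.5% and 8.85% of the members in exactly 3 lists. Of the kept regions in exactly 3 lists, the shares were 49.9%, 30.1%, 13.7% and 6.34%. Among kept regions, 5734 of 8918 were in all 4 lists. Against the E11.5 forelimb list alone 950 regions were absent, and against the hindlimb list alone 611. When 1 E10.5 library was left out and all 3 others had to hold the region, 184 members remained without forelimb 1, 368 without forelimb 2, 234 without hindlimb 1 and 212 without hindlimb 2. In that order, they made up 2.99%, 4.76%, 3.37% and 3.31% of the regions so defined.

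**Figure D1:**
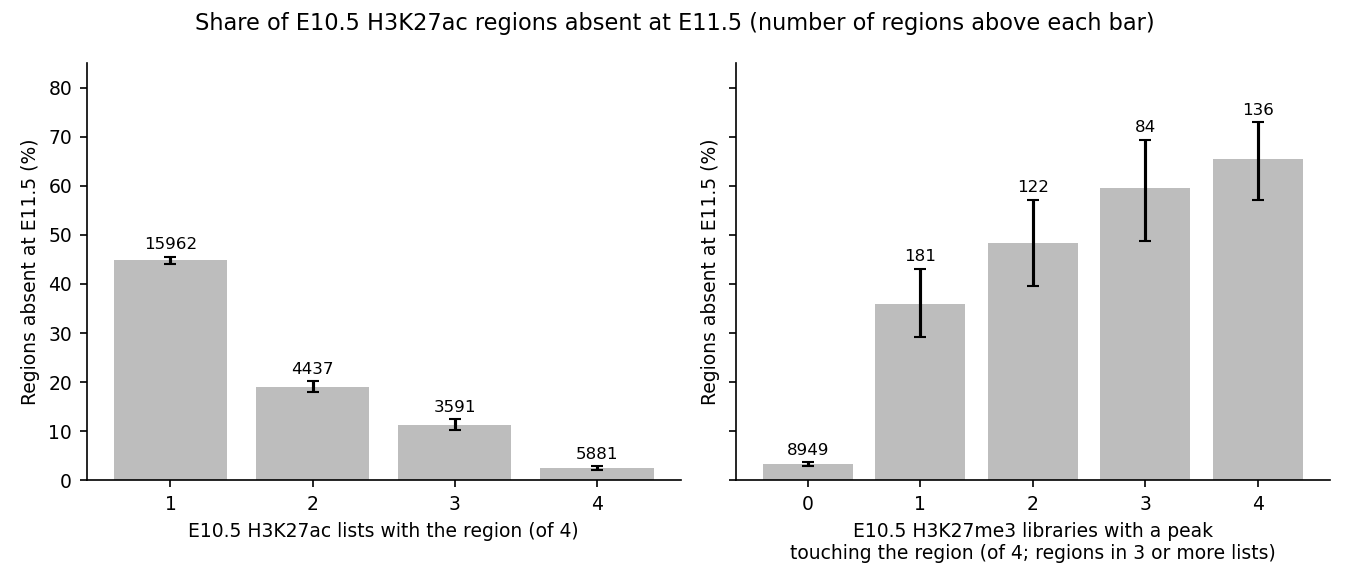
Percent of E10.5 H3K27ac regions absent at E11.5, by the number of E10.5 H3K27ac lists holding the region (left, all 29871 merged regions) and by the number of E10.5 H3K27me3 libraries with a peak touching it (right, the 9472 regions in 3 or more lists). Error bars are 95% Wilson intervals over regions, which are not independent, and numbers above the bars are regions; the share falls from 44.8% to 2.50% on the left and climbs from 3.25% to 65.4% on the right.

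Members were narrow and of middling score. Their median width was 876.5 bp (10th to 90th percentile 605 to 1330 bp, largest 3001 bp), against 1225 bp for kept regions (779 to 2125 bp, largest 20097 bp). Part of this goes with the number of lists: in exactly 3 lists the medians were 829 bp for members and 967 bp for kept regions, and in all 4 lists 1130 and 1417 bp. Members were narrower in both. Each peak's score was turned into a percentile of its own list, where 100 is the strongest peak, and a region took its best peak. The median percentile of members was 55.1 in forelimb 1, 50.8 in forelimb 2, 56.4 in hindlimb 1 and 54.5 in hindlimb 2. For kept regions it was 77.3, 68.6, 72.7 and 74.5, higher in every library. Between 1.85% and 3.40% of the members detected in a library were in the top 10% of its list, against 17.8% to 23.6% of kept regions. Averaged over the lists that held them, members had a median percentile of 50.1 and kept regions 67.7. The distributions overlapped widely. Members reached a mean percentile of 92.4, and kept regions went down to 2.95. Of regions with a mean percentile above 80, 15 of 2520 were members (0.595%), and of those between 20 and 40, 139 of 975 (14.3%).

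**Figure D2:**
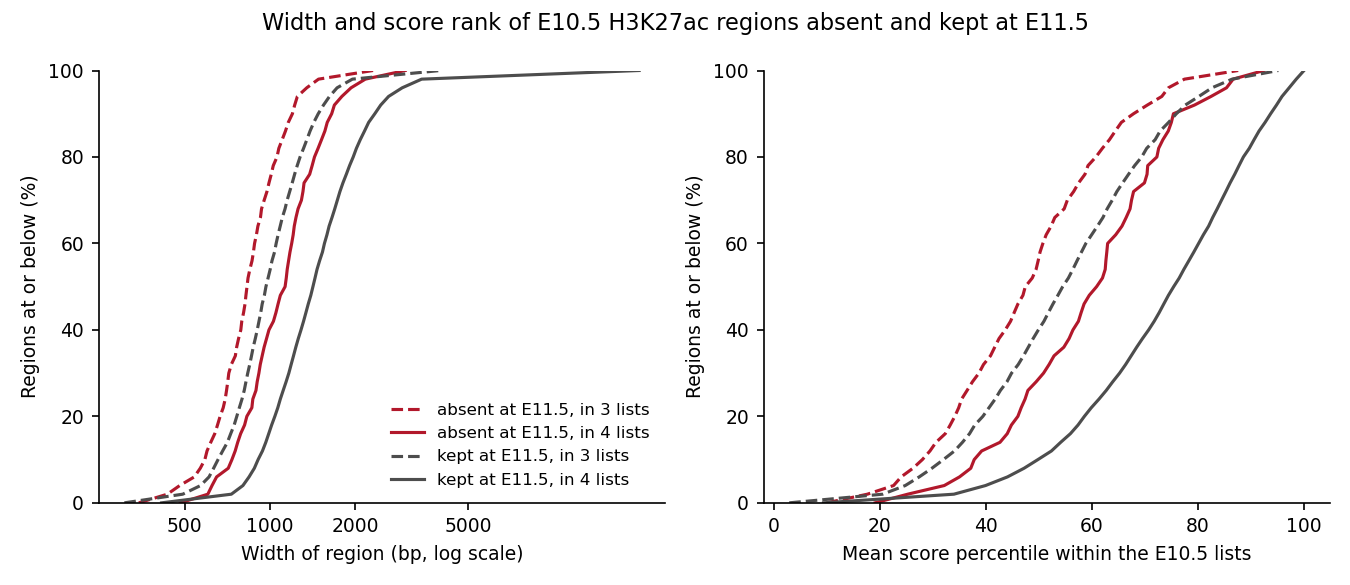
Cumulative share of regions (percent, y axis) by width in bp on a log axis (left) and by mean score percentile within the E10.5 lists (right), for regions absent (red) or kept (grey) at E11.5 and found in 3 (dashed) or 4 (solid) lists. Absent regions lie to the left of kept regions with the same number of lists, with median widths of 829 against 967 bp and 1130 against 1417 bp.

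Most members had no other member nearby. The share expected for this number of regions was not computed, so whether members cluster was not tested. Joined when within 20 kb of each other, 39 of the 554 (7.04%) had another member beside them. Without forelimb 1, forelimb 2, hindlimb 1 or hindlimb 2 this share was 3.26%, 5.71%, 3.42% and 4.72%, and with E10.5 peaks merged across gaps of 500 bp it was 4.57%. Within 100 kb 75 (13.5%) did, in 30 groups, 23 of which were pairs. The corresponding shares of kept regions were 40.5% and 77.3%, but there are 8918 of them, so that these shares are not on an equal footing. Distance to the same set of regions avoids this: the median distance to the nearest kept region was 66.1 kb from a member and 31.2 kb from another kept region. The 10th percentiles were 7.83 and 0.224 kb. This measure is not free of the rule, however. Because E11.5 peaks were joined, a region near a kept one can share its E11.5 peak and be kept as well. Members also lay away from E11.5 peaks, at a median of 18.5 kb and at most 868 kb. Within 1 kb of an E11.5 peak were 60 members (10.8%), within 5 kb 117 (21.1%) and within 50 kb 418 (75.5%), so that 136 had none within 50 kb. Chromosome 2 held the most members, 60 of 799 regions in 3 or more lists (7.51% absent). The X chromosome held 1 of 76 (1.32%), and the other chromosomes lay between 3.75% and 8.04%.

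At the edge of the rule, values on both sides were alike. The 5 members nearest to an E11.5 peak missed it by 22, 31, 60, 73 and 81 bp. The 5 kept regions with the least overlap had 2, 4, 10, 18 and 20 bp covered at E11.5. Mean percentiles were 29.1 to 76.7 in the former and 18.9 to 76.0 in the latter.

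The members also differed from kept regions in a mark the rule had not used. H3K27me3 peaks of E10.5 touched 263 members in at least 1 library (47.5%), against 260 kept regions (2.92%). The background was 5.52% of the regions in 3 or more lists and 6.85% of all merged regions. By library, an H3K27me3 peak touched 160 members in forelimb 1 (28.9%), 109 in forelimb 2 (19.7%), 218 in hindlimb 1 (39.4%) and 202 in hindlimb 2 (36.5%). The shares of kept regions were 1.22%, 0.706%, 2.21% and 1.83%. The members' share was 17.8 to 27.9 times that of kept regions, and the lowest member share lay far above the highest kept share. The 4 libraries ranked alike in both classes, hindlimb 1 highest and forelimb 2 lowest, as did the bases the lists covered, from 13.5 Mb in hindlimb 1 to 7.56 Mb in forelimb 2.

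Within 10 kb, a peak was found for 41.9% of members in forelimb 1, 30.9% in forelimb 2, 50.4% in hindlimb 1 and 47.1% in hindlimb 2. For kept regions the shares were 7.83%, 5.47%, 9.14% and 8.61%. Over all libraries 324 members had one, against 1136 kept regions, on a background of 15.4% of regions in 3 or more lists. The difference between members and kept regions averaged 34.8 ± 6.93 percentage points (SD, n = 4 libraries) and was above 0 in 4 of 4 libraries. An exact two-sided sign-flip permutation test over the libraries gave p = 0.13 (2 of 16 sign assignments), the smallest value that 4 libraries allow, so this design cannot reach 0.05. The mean difference was 29.6 points for touching peaks, 34.2 within 1 kb and 26.0 within 50 kb. Within 1 kb the libraries gave 25.8 to 45.5% of members and 1.60 to 3.77% of kept regions, and within 50 kb 42.4 to 61.4% and 22.0 to 31.7%. Most of what set members apart was thus already present at the region itself. The E10.5 H3K27me3 and H3K27ac libraries come from the same stage, and the E11.5 stage enters only through the choice of members.

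**Figure D3:**
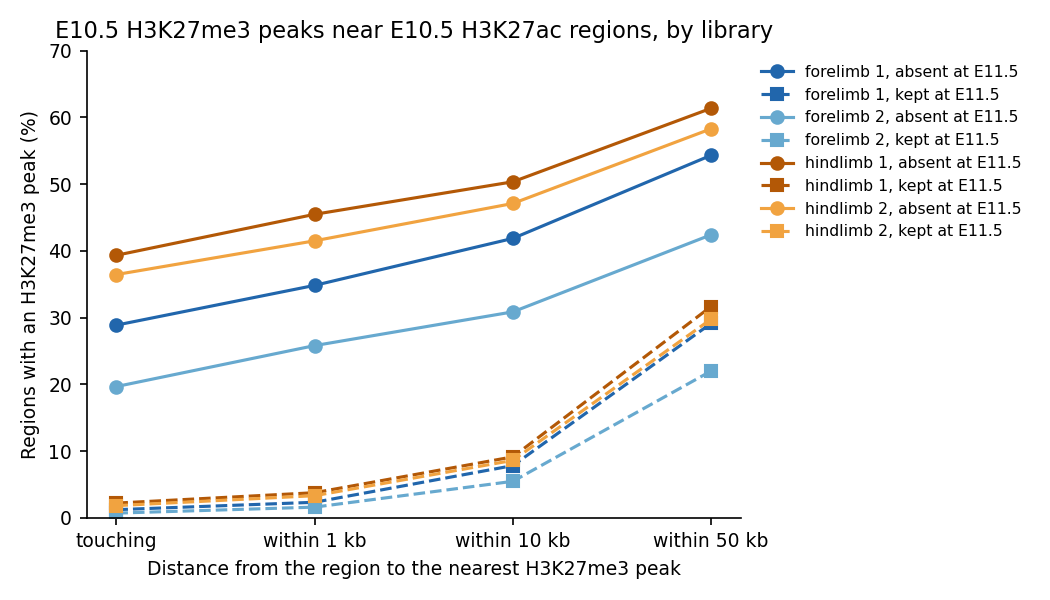
Percent of regions (y axis) with an E10.5 H3K27me3 peak touching them or within 1, 10 or 50 kb (x axis), in each of the 4 H3K27me3 libraries, for regions absent (circles, solid lines) and kept (squares, dashed lines) at E11.5. In each library and at each distance the absent regions lie above the kept ones, from 19.7 to 39.4% against 0.706 to 2.21% for touching peaks.

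The peaks sat on the members and not merely around them. In 1 kb centred on a member, H3K27me3 peaks covered 15.9% of bases in forelimb 1, 9.78% in forelimb 2, 25.04% in hindlimb 1 and 22.7% in hindlimb 2. At 5 kb from the centre they covered 1.58 to 2.23%, and at 19 to 20 kb 0.724 to 1.02%. Around kept regions the central coverage was 0.224 to 0.975%, at or below the 0.565 to 1.02% found 19 to 20 kb away in every library. At 5 kb from kept regions it was 0.421 to 0.739%, below the central value in both hindlimb libraries and above it in both forelimb libraries. A maximum at the centre of the size seen in members was thus not seen in kept regions. In the 263 touched members, the H3K27me3 region covered a median of 67.5% of the member, and their centres lay a median of 403 bp apart. In the 260 touched kept regions these values were 38.8% and 543 bp. Both measures depend on the width of the region, and touched members were narrower (median 917 bp against 1363.5 bp).

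**Figure D4:**
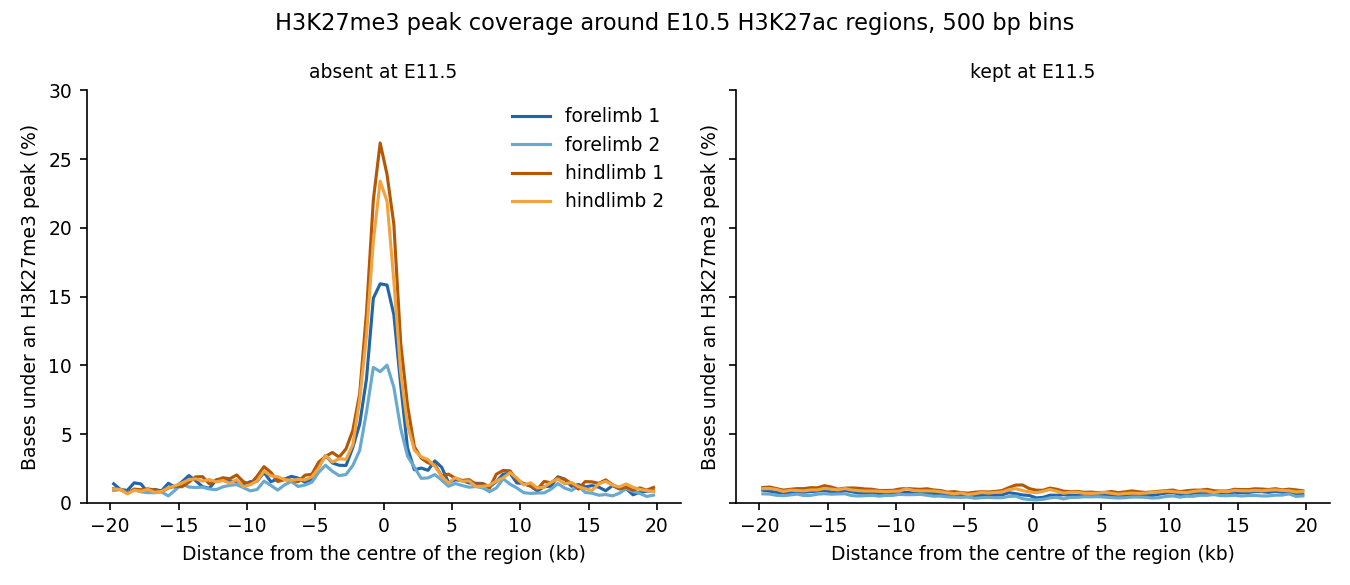
Percent of bases under an E10.5 H3K27me3 peak (y axis) in 500 bp bins by distance from the centre of the region in kb (x axis), for the 554 absent regions (left) and the 8918 kept regions (right), with 1 line per H3K27me3 library. Absent regions show a narrow maximum at the centre in all 4 libraries, while kept regions stay near 1% or below throughout.

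As joined here, the H3K27me3 regions at members were mostly short, as they were at kept regions. With peaks of the 4 libraries joined across gaps of up to 1 kb, the H3K27me3 region at a touched member had a median width of 1736 bp, against 893 bp for all 9312 such regions of the genome. Up to 2 kb wide were 150 (57.0%), between 2 and 5 kb 94, between 5 and 20 kb 18, and 1 was wider. At touched kept regions the median was 1459.5 bp, and 155 of 260 (59.6%) were up to 2 kb wide. Joined regions over 5 kb made up 19 of 263 (7.22%) at members and 40 of 260 (15.4%) at kept regions. These widths depend on the joining gap, since a longer stretch of separate peaks is cut wherever a gap exceeds 1 kb. At Irx5, the joined region of 5353 bp ended at such a gap, with further H3K27me3 peaks beyond it. The widths therefore do not show how far a Polycomb domain reached. The best H3K27me3 peak at a touched member had a median percentile of 63.8 in its own list, and that at a touched kept region 49.8. Seen from the H3K27me3 lists, peaks at members were a small part: 194 of 12384 in forelimb 1, 133 of 10477 in forelimb 2, 245 of 12901 in hindlimb 1 and 235 of 12678 in hindlimb 2, or 1.27 to 1.90%.

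The libraries often found the same members. A touching peak was present in all 4 H3K27me3 libraries at 89 members, in 3 at 50, in 2 at 59 and in 1 at 65. At kept regions the numbers were 47, 34, 63 and 116. Read the other way, 3.25% of the 8949 regions without a touching peak were absent at E11.5, 35.9% of the 181 with a peak in 1 library, 48.4% of 122 in 2, 59.5% of 84 in 3 and 65.4% of 136 in all 4. Both hindlimb and neither forelimb library touched 35 members, and both forelimb and neither hindlimb library 6. For kept regions these numbers were 53 and 3. The hindlimb lists are the longer ones, so these numbers do not compare the limbs.

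The share of touched members stayed high whatever their H3K27ac width or score. By mean score percentile it was 39.6% from 20 to 40, 45.5% from 40 to 60, 58.0% from 60 to 80, and 8 of 15 members above 80. Kept regions of the same ranges stood at 2.03 to 3.15%. By width it was 39.5% up to 700 bp, 44.2% to 1000 bp, 53.8% to 1500 bp and 71.0% above, against 0.394 to 3.55% in kept regions. It was 45.9% for members in 3 lists and 51.7% for those in all 4, against 2.76% and 3.0% of kept regions. It was also 13.6% of the absent and 1.71% of the kept regions in 1 list, and 34.8% and 2.98% in 2 lists. Members within 1 kb of an E11.5 peak were touched least (18 of 60). From 1 to 10 kb it was 55 of 127 (43.3%), from 10 to 50 kb 116 of 231 (50.2%) and beyond 74 of 136 (54.4%). Touched members were somewhat wider than the other 291 (median 917 against 833 bp) and ranked somewhat higher (mean percentile 53.0 against 47.4). The input libraries are not analysed here, and whether local background shared by the libraries of both marks has a part in this overlap was not tested.

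Genes could be placed only as windows on mm9 from general knowledge, without gene models, and a member at a locus means one within 100 kb of such a window. Of 70 loci in 13 lists, 7 had a member, and 18 of 184 regions near them were members (9.78%, against 5.85% of all regions in 3 or more lists). The loci of the Hox clusters had 14 of the 18, out of 41 Hox regions (34.1%). At the loci of limb identity (Tbx5, Tbx4, Pitx1, Isl1) 0 of 7 regions were members. Of these regions 6 were at Tbx4 and 1 at Pitx1, and Tbx5 and Isl1 had no region that could be a member. Since the rule takes only regions listed in both limbs, regions of 1 limb at these loci could not be members. At the loci of limb signalling such as Gli3, Bmp4 and Fgf10 0 of 35 were members, and at those of mesenchyme and cartilage 1 of 44. At the proximodistal and retinoic acid loci 2 of 8 were, both at Meis1. At the dorsoventral loci Lmx1b and En1 it was 0 of 8, with all 8 regions at Lmx1b and no region at En1. At early growth loci such as Lin28b and Mycn it was 0 of 16, and at the controls Actb and Gapdh 0 of 13. Loci of other cell types had few regions at all. Those of blood had 7 regions, of endothelium 3, of neural tissue and neural crest 3 and of epithelium 3, with 0 members, and those of muscle precursors had 1, a member. Regions near more than 1 locus count once in the 184.

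The Hox genes encode homeodomain factors that pattern the body axis and the limb, and each of the 4 clusters had a member. HoxC had 5, 4 inside the window of the cluster and 1 beside it, and the 4 inside touched H3K27me3. With a sixth member beyond the window of the cluster they made the largest group of all, 6 within 157 kb (chr15:102821008-102977750), between which 2 kept regions lay. The first, chr15:102821008-102821992, had score percentiles of 19.6 in forelimb 2, 34.9 in hindlimb 1 and 80.7 in hindlimb 2, and was not in forelimb 1. H3K27me3 covered 8195 and 6042 bp within 10 kb of it in the forelimb libraries and 0 bp in both hindlimb libraries. It was the one HoxC member with H3K27me3 nearby in both forelimb libraries and in neither hindlimb library. The next at chr15:102840003-102841400 ranked at 78.7, 71.4 and 62.7 in forelimb 1, forelimb 2 and hindlimb 1, and was missing from hindlimb 2. Its neighbour chr15:102842300-102843123 was weaker, at 59.8, 3.44 and 5.33 in the same libraries. The fourth, chr15:102845471-102846639, was touched by H3K27me3 in all 4 libraries, with 90.6% of it covered, and its nearest E11.5 peak was 600 bp away. The widest HoxC member, chr15:102889064-102891373, was the one beside the window. It spanned 2310 bp, ranked at 95.9 in hindlimb 2 and 64.1 in forelimb 1, and had 0 bp of H3K27me3 within 10 kb in any library. The sixth member of the group, chr15:102977057-102977750, outside the HoxC count, was covered over its whole length by the combined H3K27me3 of the 4 libraries.

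In HoxD, 5 members lay within 40.8 kb (chr2:74550968-74591774) with no kept region between them. The adjoining pair chr2:74550968-74551788 and chr2:74551805-74553477 began 244 and 1081 bp past the last E11.5 peak, at the end of the stretch that kept H3K27ac. The other 3 stood 33.7 to 39.9 kb away from any E11.5 peak. Of these, chr2:74587353-74588482 ranked at 88.6 in forelimb 1, 62.2 in forelimb 2, 95.2 in hindlimb 1 and 35.7 in hindlimb 2. The last, chr2:74590575-74591774, ranked at 61.1, 70.4, 70.1 and 96.4. At both, replicates of 1 limb differed as much as the limbs did. The shortest, chr2:74584437-74585030, was the only HoxD member touched by H3K27me3, which covered it fully and was present in all 4 libraries (1276 to 1749 bp within 10 kb). The E11.5 forelimb list still had 38.1 kb of H3K27ac over the whole HoxD window and the hindlimb list 36.7 kb.

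HoxB differed from HoxD in this respect. Its H3K27ac peaks covered 9.50 and 7.12 kb in the forelimb and 10.1 and 14.3 kb in the hindlimb libraries at E10.5, but only 0.955 kb of the E11.5 forelimb list and 4.56 kb of the hindlimb list. Both E11.5 values lay below the lowest E10.5 value, although E11.5 peaks were joined and E10.5 peaks were not. In HoxC this held for the forelimb only, with 2.21 kb at E11.5 against 8.21 and 3.32 kb at E10.5. The HoxC hindlimb had 38.5 kb at E11.5 against 21.7 and 29.2 kb at E10.5. With 1 library per limb at E11.5 there is no replicate check. Of the 5 HoxB regions in 3 or more lists, 3 were members, within 50.01 kb, and none of them was touched by H3K27me3. The best ranked, chr11:96193850-96195419, stood at 79.1, 85.9, 71.8 and 92.6 in forelimb 1, forelimb 2, hindlimb 1 and hindlimb 2, 18.5 kb from the nearest E11.5 peak. The region chr11:96145407-96146652 reached 93.8 in forelimb 2 and 91.6 in hindlimb 2, but 56.5 in hindlimb 1, and was missing from forelimb 1. It lay 373 bp from an E11.5 peak. Within 10 kb of it, H3K27me3 covered 6128 and 4332 bp in the forelimb and 855 and 1495 bp in the hindlimb libraries. The third, chr11:96175812-96176787, ranked below the best ranked one in every library, at 15.99 to 55.1. HoxA had 1 member of 11 regions, chr6:52110424-52111147, at 47.2 to 64.6 in 3 libraries and 42.2 kb from an E11.5 peak.

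**Figure D5:**
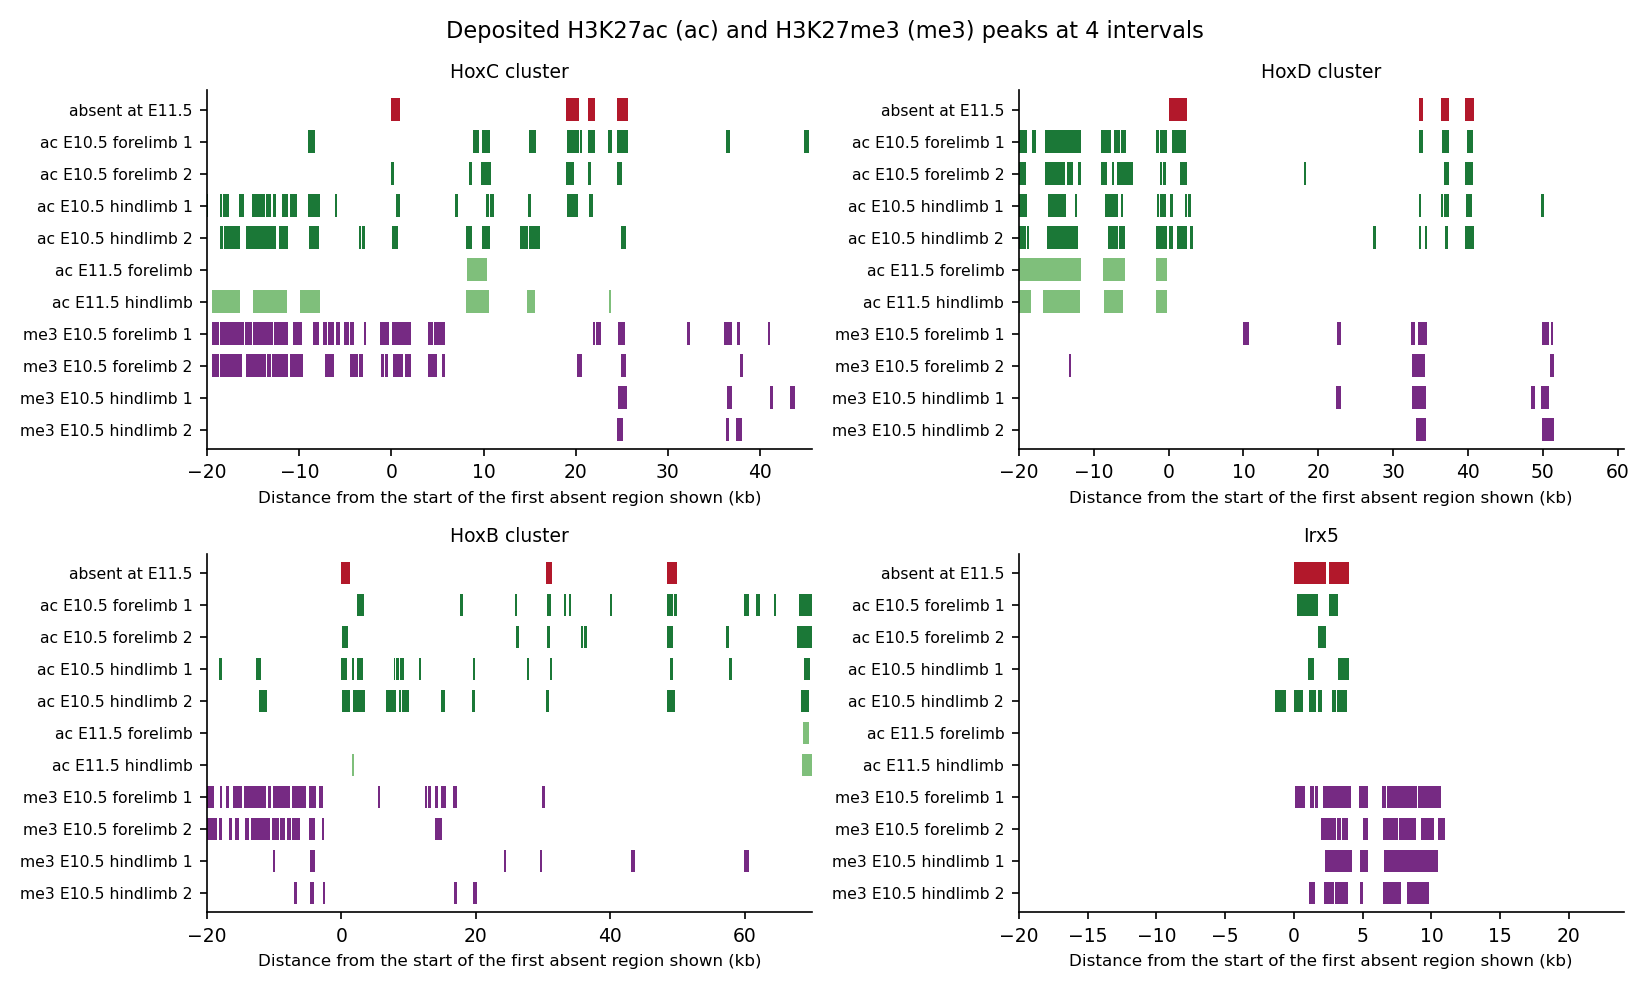
Deposited peaks at the HoxC, HoxD and HoxB clusters and at Irx5, with 1 row per list (ac, H3K27ac; me3, H3K27me3) and absent regions in red; the x axis is the distance in kb from the start of the first absent region shown, and bars are drawn to scale. In HoxD 2 absent regions adjoin the end of the E11.5 peaks and 3 lie over 30 kb beyond it, and at Irx5 the absent regions overlap H3K27me3 peaks with no E11.5 peak in view.

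Outside the Hox clusters, the listed loci had 4 members. At Meis1, a homeobox gene of the proximal limb, chr11:18926432-18927698 was in all 4 lists with percentiles of 80.1, 83.6, 75.5 and 50.2, 5.09 kb from an E11.5 peak and with 0 bp of H3K27me3 within 10 kb. The other Meis1 member, chr11:18771696-18772271, ranked lower, at 27.3 to 50.5. At Sall4, a zinc finger factor, chr2:168665072-168666065 ranked at 29.8, 34.7 and 74.1 in 3 libraries. At Lbx1, a homeobox gene of migrating muscle precursors, chr19:45344188-45345706 ranked at 58.3 to 79.6 and lay 54.4 kb from an E11.5 peak. None of these 4 except the weaker Meis1 member touched H3K27me3.

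The loci that follow were named after the positions of the top members had been seen, so nothing is counted over them. Pkdcc encodes a secreted protein kinase needed for skeletal growth. Its locus held 4 members, of which 1 was strong. That one, chr17:83614768-83616085, was second in rank among all members, at 96.2 in forelimb 1, 94.7 in forelimb 2, 94.7 in hindlimb 1 and 83.6 in hindlimb 2, with H3K27me3 of 387 bp in hindlimb 2 and 0 bp in the other libraries. It belonged to a group of 5 members over 198 kb (chr17:83477650-83676067) that held no kept region. Of these 5, 2 touched H3K27me3. The region beside it, chr17:83617244-83618346, ranked at 69.7, 36.8 and 48.8 and was not in hindlimb 2. The other two averaged 23.8 (chr17:83577273-83577898) and 58.7 (chr17:83675130-83676067). All 4 regions in 3 or more lists within 100 kb of the Pkdcc window were members, and neither E11.5 list covered any base of the window itself. Beside the window, an E11.5 peak lay 575 bp from the member chr17:83675130-83676067. In E10.5 lists the window had 3.13 and 1.51 kb of H3K27ac in forelimb and 2.32 and 1.31 kb in hindlimb.

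The Iroquois genes Irx3 and Irx5 encode homeodomain factors that act in early limb patterning. At Irx3, chr8:94323424-94325428 was 2005 bp wide and ranked at 52.8, 76.4, 91.9 and 69.0 in forelimb 1, forelimb 2, hindlimb 1 and hindlimb 2. At Irx5, chr8:94880678-94882989 ranked at 86.1, 48.3, 34.7 and 80.8, and its neighbour chr8:94883241-94884655 at 16.3, 71.5 and 75.8, without forelimb 2. All 3 were touched by H3K27me3 in all 4 libraries. Within 10 kb, the mark covered 4110 to 6532 bp at Irx3 and 5271 to 8068 bp at Irx5. The nearest E11.5 peaks were 354 kb from the Irx3 member and 437 and 438 kb from the Irx5 members, and 11 members in all were more than 300 kb from one. Both E11.5 lists covered 0 kb of either window.

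At Cyp1b1, which encodes a cytochrome P450 enzyme, chr17:80112801-80115801 was the widest member, at 3001 bp. It ranked at 78.8 and 81.4 in the forelimb and 48.2 and 45.2 in the hindlimb libraries, and its peaks covered 2579 and 815 bp against 369 and 1064 bp. The limbs did not overlap in rank but did in covered bases. H3K27me3 touched it in all 4 libraries (1675 to 3061 bp within 10 kb), and the nearest E11.5 peak was 97.5 kb away. Bmper encodes a secreted regulator of bone morphogenetic proteins. Its member chr9:23027184-23028056 ranked at 52.1, 72.1 and 52.2 in forelimb 1, forelimb 2 and hindlimb 1, was touched by H3K27me3 in all 4 libraries and was wholly covered by it.

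The most H3K27me3 within 10 kb of any member, 12976 to 15494 bp per library, was found at chr4:109650500-109651426 at Dmrta2, which encodes a DM-domain transcription factor. Its H3K27ac was of low to middling rank, at 63.0, 60.03 and 11.4 in 3 libraries. Other members among the 10 with most H3K27me3 lay at Tbr1 (chr2:61653463-61654536, 6493 to 9326 bp) and Nr2f2 (chr7:77476720-77477636, 6997 to 8814 bp), both of which encode transcription factors. These 10 had mean H3K27ac percentiles of 44.8 to 92.4. Among the 10 best ranked members, 7 were touched by H3K27me3, and among the 10 widest also 7, against 263 of all 554 members (47.5%). The member chr18:11997489-11999292 is in both sets. Of all members above 1500 bp in width, 71.0% were touched.

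Further groups of members had no listed locus. On chromosome 2, 4 members lay within 125 kb (chr2:30532132-30657553) among 9 kept regions, each within 7.10 kb of an E11.5 peak. Of these, chr2:30580697-30581851 ranked at 63.9, 89.2 and 66.8, and only chr2:30656579-30657553 was touched by H3K27me3, in all 4 libraries. On chromosome 4, 3 members (chr4:154524381-154682564) stood among 3 kept regions with no H3K27me3 touching them, led by chr4:154595622-154596695 at 82.97, 66.2, 70.6 and 70.6. On chromosome 8, 3 members (chr8:128093054-128194483) had no kept region between them and no touching H3K27me3, and lay 10.2 to 51.6 kb from an E11.5 peak. Their strongest, chr8:128193551-128194483, ranked at 71.5, 60.5, 92.9 and 72.7.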

How the data were processed

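Alignment to mm9 used Bowtie 0.12.3 and peak calling MACS 1.37, per the submitters' processing notes. Per the file headers, E10.5 lists hold peaks at a p-value threshold of 1e-05. The deposited score of a peak, -10 log10 of its p-value, served only for ranks within a list. For the E11.5 lists, which have no score, no threshold is given in these sources. There is 1 list per library; depth is unknown. Nothing in the labels tells whether replicates were separate litters, so the spread and p may be technical. Input (10) and mRNA (4) samples are not analysed here.

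The members, the lists of loci and the tests were chosen with earlier results of these data known. Named were the 10 best ranked and 10 widest members, the largest groups within 100 kb, the 10 with most H3K27me3, those at the edge of the rule and those at 70 listed loci; some of these regions are not reported here. A further 9 loci were added after positions were seen. All 79 windows lay on the chromosome given by the GRCm38.p6 gene table, which does not check their bounds. Counts and tests ran in Python 3.11.15 with numpy 2.4.6 and scipy 1.17.1 and were tested on simulated lists.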

Additional observations from a re-analysis of the deposited data

How the results depend on the processing

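The difference in H3K27me3 within 10 kb between members and kept regions was positive under all 24 alternatives tried, at 23.3 to 37.9 percentage points. Its exact p was 0.13, or 0.25 where 3 libraries remained, the smallest possible values. The number of members moved with the rule. It was 147 when all 4 E10.5 lists were required, 1399 with 2 lists, 161 with the top 50% of each list by score, 350 with lists of equal length and 950 against the E11.5 forelimb list only. The percent absent was then 2.50%, 10.1%, 2.70%, 4.36% and 10.0%. It was 5.22% with no E11.5 peak allowed within 1 kb and 6.45% against the hindlimb list only. Leaving out each E10.5 H3K27ac library gave 184 to 368 members and 2.99 to 4.76% absent. No paired analysis was possible because replicate numbers enter no comparison between groups of samples here; the reported test itself already sets members against kept regions within each library. GC content and other sequence properties of the regions were planned only for an mm9 genome and were not run. Peak lists give no depth, so a region just under a threshold cannot be told from one without signal.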
